A study of Mus musculus with 96 samples.

Results

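The type I interferon response genes described here are 38 named genes: the interferon receptor subunits, the transcription factors that act on interferon-stimulated genes, cytosolic nucleic acid sensors, and antiviral effectors. They were taken by name from a table of 48795 genes, and 37 of the 38 names each had 1 row. The name Cgas had none. The gene with its identifier (ENSMUSG00000032344) is listed under the older symbol Mb21d1, so it is described separately and enters no count of members. After a filter on low counts, 34 of the 37 were tested in striatum and the same number in cortex. Mx1, Oas3 and Zbp1 did not pass.

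RNA was sequenced from the striatum and the cerebral cortex of 48 C57BL/6 mice, sampled at 6 months of age. There were 6 genotypes of 8 mice, 4 males and 4 females each: wild type, Q140, Msh6+/-, Q140 with Msh6+/-, Msh6-/-, and Q140 with Msh6-/-. Q140 mice carry an expanded CAG repeat knocked into the endogenous huntingtin gene (Htt) and serve as a model of Huntington's disease. All Q140 mice here were heterozygous for the knock-in, per the labels. Which part of Msh6 is deleted is not given there. Msh6 is a DNA mismatch repair protein that recognises mispaired bases. The labels name no driver that would limit either allele to a tissue or cell type. The question asked of these genes was whether a broad interferon response goes with the loss of Msh6 or with Q140.

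Type I interferons are secreted when a cell senses foreign or misplaced nucleic acid. RNA sensors such as Rig-I (Ddx58) and Mda5 (Ifih1), and the DNA sensor cGAS, lead to activation of Irf3 and Irf7, which switch on the interferon genes. Secreted interferon binds the receptor of Ifnar1 and Ifnar2, and a complex that holds Stat2 and Irf9 then binds interferon-stimulated response elements in front of Ifit, Oas, Mx, Isg15 and many other genes. In the brain, microglia, endothelial cells and astrocytes are the usual responders, and neurons carry the receptor as well.

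The libraries held 12403528 to 21108017 counts in striatum and 16725695 to 22886441 counts in cortex. The labels were checked first on Msh6 itself. Mean Msh6 levels in striatum, in CPM (counts relative to the scaled library total), were 17.4 in wild type, 13.8 in Msh6+/- and 8.09 in Msh6-/- mice. In cortex they were 19.5, 14.1 and 8.83. Transcript of the gene thus remained in Msh6-/- tissue at a lower level, and in these genotypes the order followed the labels. The Msh6 levels of the Q140 groups and the levels of Htt are not given here. Both tissues carried their own markers: the summed level of 12 striatal projection neuron markers was 7019 to 13710 CPM in striatum and 398.6 to 522.0 CPM in cortex. One striatal library (mouse 21-3, Q140 Msh6-/-) held a choroid plexus marker sum of 2903 CPM, a list whose highest sum was 54.42 CPM in the other genotypes' striata. Leaving it out is among the alternatives given at the end.

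A motif of the response element is found in the promoters of some of the genes. The motif of GAAA, any 2 bases and GAAA was searched on both strands in windows of 300 bases (250 before to 50 after the start of each gene, RefSeq, GRCm38.p6), and overlapping matches were counted. It was present in 1079 of 27025 genes (3.99%), and in 14 of the 29 members that the promoter table holds (48.3%). Matches are a description of letters and not of bound sites. The 5 stretches printed here belong to members that were among the most raised in single mice in the results that follow. They lie upstream of the transcription start and are given 5′ to 3′ on the strand of the gene, with the motif or its reverse complement in capitals.
Isg15 (chr4:156200860-156200911, minus strand, 3 matches): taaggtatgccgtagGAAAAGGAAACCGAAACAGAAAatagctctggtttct
Ifit1 (chr19:34640770-34640828, plus strand, 2 matches): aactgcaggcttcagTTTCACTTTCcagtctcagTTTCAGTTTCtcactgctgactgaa
Ifit3 (chr19:34583358-34583431, plus strand, 2 matches): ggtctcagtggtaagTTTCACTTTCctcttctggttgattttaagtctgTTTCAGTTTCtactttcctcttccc
Bst2 (chr8:71537572-71537617, minus strand, 2 matches): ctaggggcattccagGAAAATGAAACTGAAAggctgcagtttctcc
Oas1a (chr5:120907526-120907560, minus strand, 2 matches): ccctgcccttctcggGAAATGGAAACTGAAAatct

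The 5 were chosen among members with a match. Oasl2, Ifi44 and Irf7, which were also raised in single mice, had no match in their windows, nor had Samhd1, Irf3 and Ifnar1, while Stat2 had one. The matches overlapped in Isg15, Bst2 and Oas1a and were separate in Ifit1 and Ifit3. In Ifit1 and Ifit3 the matches stood in the reverse orientation, and in Isg15, Bst2 and Oas1a in the forward orientation.

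In wild-type brain the members covered a wide range of levels. On the length-corrected scale (FPKM, the deposited values, mean ± SD, n = 8), the RNA editing enzyme Adar was highest in both tissues, at 25.9 ± 1.81 in striatum and 29.4 ± 2.44 in cortex. It was followed in striatum by Ifi27 at 8.39 ± 0.758, Ifnar1 at 7.12 ± 0.405, Ifitm3 at 6.84 ± 1.07, Stat2 at 6.10 ± 0.666 and Irf3 at 5.24 ± 0.605. Ifitm3 differed from its neighbours Ifnar1 and Stat2 in this order by less than its own SD.

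The genes best known as readouts of an ongoing response were low. Isg15 stood at 0.977 ± 0.399 FPKM in wild-type striatum, Ifit1 at 0.749 ± 0.379, Oasl2 at 0.483 ± 0.219, Irf7 at 0.366 ± 0.0805 and Usp18 at 0.312 ± 0.167. Usp18 exceeded 8.26% of the genes tested in striatum, Ifit1 18.2% and Isg15 21.7%. The lowest were Mx1, Zbp1 and Oas3, the 3 members that were not tested. Their highest counts in any of the 96 libraries were 20, 9 and 8. The interferons themselves were nearly absent: over 13 ligand genes, the highest count of any gene in any library was 2, all 96 libraries together held 22 counts, and 79 libraries had none.

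In striatum, Q140 went with changes in 4 of the 34 members, and the changes were small. Samhd1, Irf3 and Ifnar1 rose and Stat2 fell, by 1.14-fold at most. The comparison averaged Q140 over the 3 Msh6 genotypes (24 mice against 24) and was tested with edgeR's quasi-likelihood test with sex in the model and Benjamini-Hochberg adjustment over all genes. In this comparison 52.7% of all genes tested passed an adjusted p of 0.05, so 4 of 34 members is a smaller share than that of genes at large. DESeq2 called 4 members, 3 higher and 1 lower. With either pseudocount, limma on log2 FPKM also called 4, but these were not the same set: all 4 were higher and none lower.

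The clearest of the 4 was Samhd1 (chromosome 2, 157097533 to 157135265, GRCm38), a dNTP hydrolase that restricts retroviruses and whose human counterpart is mutated in an interferonopathy. Its striatal level was 28.3 to 35.2 CPM in wild type (median 31.3) and 31.7 to 38.5 CPM in Q140 mice (median 35.6). Among Msh6+/- mice it was 27.4 to 33.6 CPM without Q140 (median 31.6), while carriers had 33.5 to 38.6 CPM (median 35.1). Among Msh6-/- mice it was 28.1 to 32.5 CPM without Q140 (median 29.95), while carriers had 32.5 to 36.0 CPM (median 34.8). Every Q140 group had a higher median than its matched control. The ranges overlapped in each pair, in the Msh6+/- pair only between the lowest carrier (33.47 CPM) and the highest control (33.59 CPM) and in the Msh6-/- pair only between 32.46 and 32.52 CPM. Averaged over the pairs, Samhd1 rose by 0.19 log2 units (SE 0.023, 1.14-fold, edgeR adjusted p = 1.01e-09).

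Among the transcription factors, Irf3, which the cytosolic sensors activate, rose and Stat2, a subunit of the interferon-activated complex, fell. Irf3 (chromosome 7, 44997648 to 45002848) ranged from 14.6 to 23.4 CPM in the 24 striata without Q140 (median 20.6) and from 17.5 to 26.3 CPM in the 24 with it (median 22.6). Its difference was 0.16 log2 units (SE 0.037, adjusted p = 0.000381, edgeR). Irf3 shares 88 exon bases on the opposite strand with Bcl2l12, and the strand setting of the counting is not given in the sources used here. Stat2 (chromosome 10, 128270559 to 128292849) ranged from 23.5 to 32.2 CPM without Q140 (median 29.1) and from 23.7 to 32.2 CPM with it (median 27.1). The difference of -0.08 log2 units (SE 0.032, adjusted p = 0.0265, edgeR) was not reached on the FPKM scale, where it was -0.01 with an adjusted p of 0.768 in limma (pseudocount 0.1). The deposited FPKM carry no scaling between libraries, and the median of all genes there was 0.08 log2 units, beside 0.02 in edgeR. The part of this shift in the Stat2 value was not tested. The carriers and non-carriers overlapped between 17.5 and 23.4 CPM for Irf3 and over nearly their whole range for Stat2.

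Of the 2 receptor subunits, Ifnar1 (chromosome 16, 91485238 to 91507441) rose by 0.07 log2 units (SE 0.020, adjusted p = 0.00304, edgeR), with values of 40.4 to 47.6 CPM without Q140 (median 43.7) and 41.8 to 51.2 CPM with it (median 45.4). Ifnar2 had a difference of 0.07 log2 units (SE 0.033) and did not pass (adjusted p = 0.0559, edgeR). The largest estimates among the members that did not pass were Ifi44 at -0.28 (SE 0.183) and Mx2 at 0.23 (SE 0.129). All 34 intervals at 95% confidence lay within 2-fold and 32 within 1.5-fold. The members divided evenly: 18 of 34 estimates were positive, with a median of 0.03 log2 units beside 0.02 for all genes. By role, the 5 Ifit, Mx and Rsad2 effectors had estimates from 0.03 to 0.23, the 3 Oas genes from -0.27 to 0.13 and the 3 RNA sensors from -0.14 to 0.06, and none of these 11 passed.

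**Figure D1:**
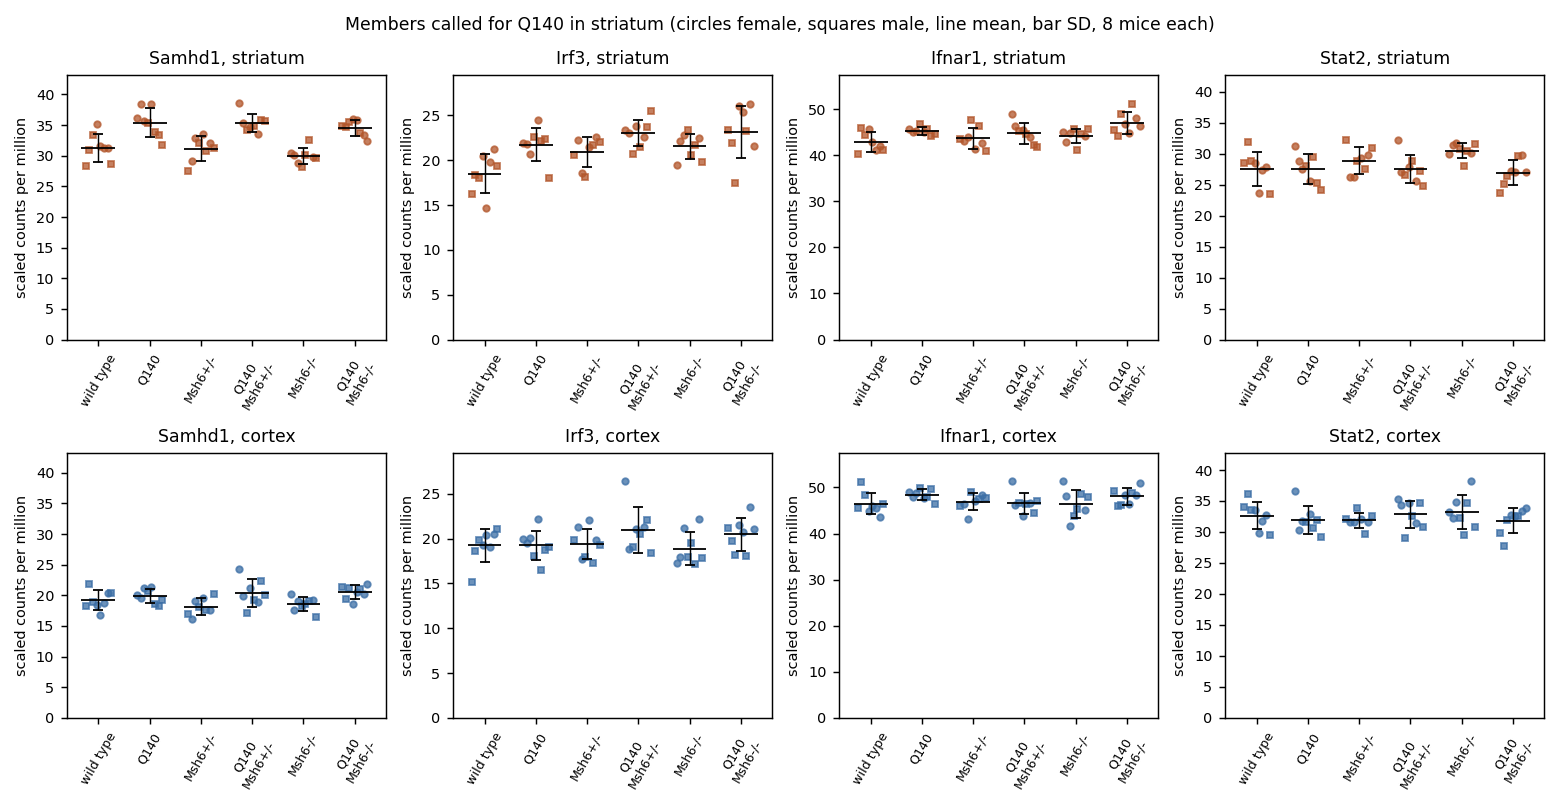
Scaled CPM of the 4 members called for Q140 in striatum, in striatum (upper row) and cortex (lower row), for each of 8 mice in 6 genotypes; lines are means and bars SDs. Samhd1 in striatum is higher in each Q140 group than in its matched control, with medians of 35.6 against 31.3 CPM in the first pair, while the other genes overlap widely.

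Within the matched pairs, which each compare 8 mice with 8, Samhd1 was the only member called in all 3. Q140 against wild type gave 2 of 34 members (29.7% of all genes called): Samhd1 at 0.18 log2 units and Irf3 at 0.23. Q140 Msh6+/- against Msh6+/- gave 1 (31.2% of all genes called), Samhd1 at 0.18. Q140 Msh6-/- against Msh6-/- gave 3 (33% of all genes called): Samhd1 at 0.21, Ifnar1 at 0.09 and Stat2 at -0.18. The call of Ifnar1 in that pair (edgeR adjusted p = 0.0390) was lost with DESeq2, with its size factors, without the filter and with only the 2 groups in the fit. None of the 34 members passed for an interaction of Q140 with either Msh6 genotype in striatum (0% and 0% of all genes called with edgeR; 0 and 1 members at an unadjusted p under 0.05; 0 with DESeq2 and with limma).

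The DNA sensor cGAS (Cgas), taken by its identifier, also rose in Q140 striatum. It ranged from 0.687 to 1.62 CPM in the 24 striata without Q140 (median 1.13) and from 0.704 to 2.29 CPM in the 24 with it (median 1.495), a difference of 0.36 log2 units (SE 0.105, adjusted p = 0.00358, edgeR). The mean was higher with Q140 in all 3 matched pairs. In cortex the difference was -0.04, and the difference between the tissues was 0.40 (SE 0.139, adjusted p = 0.0171, edgeR). cGAS has 201 antisense exon bases in common with a predicted gene.

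The highest values of the interferon-stimulated genes came from a few single mice. In striatum, 2 libraries stood apart by these genes, a feature seen in the data and given by no label: that of mouse 14-1 (a female Q140 Msh6+/-) and that of mouse 19-3 (a female Q140). In mouse 14-1, 13 of 34 members were more than 2-fold above the mean of the other 7 libraries of the group, compared with 0.554% of all genes. In mouse 19-3 there were 11, compared with 1.14% of all genes. The striatum of mouse 14-1 was the highest of all 48 for 16 members (1.35% of all genes), and that of mouse 19-3 for 5 (1.63% of all genes). Wild-type mouse 16-1, also female, came next with 6 members, and every other striatal library had at most 3.

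The values show how far the 2 mice were from the rest. Oasl2, a protein of the oligoadenylate synthetase family, stood at 12.7 CPM in mouse 14-1 against 2.10 ± 0.201 in the other 7 striata of its group (SD), a ratio of 6.07, and at 10.5 CPM in mouse 19-3 against 2.53 ± 0.447. Isg15, the ubiquitin-like modifier, stood at 2.68 CPM against 0.432 ± 0.136 and at 2.47 CPM against 0.540 ± 0.258. Usp18, which removes Isg15 from its targets and dampens receptor signalling, stood at 2.20 CPM against 0.583 ± 0.247 and at 2.80 CPM against 0.760 ± 0.165. These 3 genes are low, and the counts behind the high values are 266 and 192 for Oasl2, 56 and 45 for Isg15, and 46 and 51 for Usp18.

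Other effectors and 1 of the 5 transcription factors, Irf7, were raised in the same mice. Ifit1, which binds viral RNA ends, was at 7.32 CPM against 1.36 ± 0.311 in mouse 14-1 and at 6.64 CPM against 1.70 ± 0.368 in mouse 19-3. Irf7, the interferon-induced factor that amplifies the response, was at 3.78 CPM against 0.918 ± 0.213 and at 2.96 CPM against 1.26 ± 0.366. Bst2, which tethers enveloped virus particles, was at 4.02 CPM against 1.09 ± 0.198 and at 2.64 CPM against 1.13 ± 0.319. Rsad2 (viperin) was more than 2-fold up in mouse 19-3 only (4.06 CPM against 1.49 ± 0.362). Gbp3 was so in mouse 14-1 only (9.71 CPM against 4.05 ± 0.597). Other members were less far from their groups. In mouse 14-1 the ratio to the others was 1.33 for Irf9, 1.20 for Stat2, 1.13 for Irf1, 1.02 for Irf3, 1.14 for Ifit2 and 1.11 for Samhd1. In mouse 19-3 it was 1.102 for Irf9, 1.00 for Stat2, 1.097 for Irf1, 0.943 for Irf3, 1.29 for Ifit2 and 1.01 for Samhd1.

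**Figure D2:**
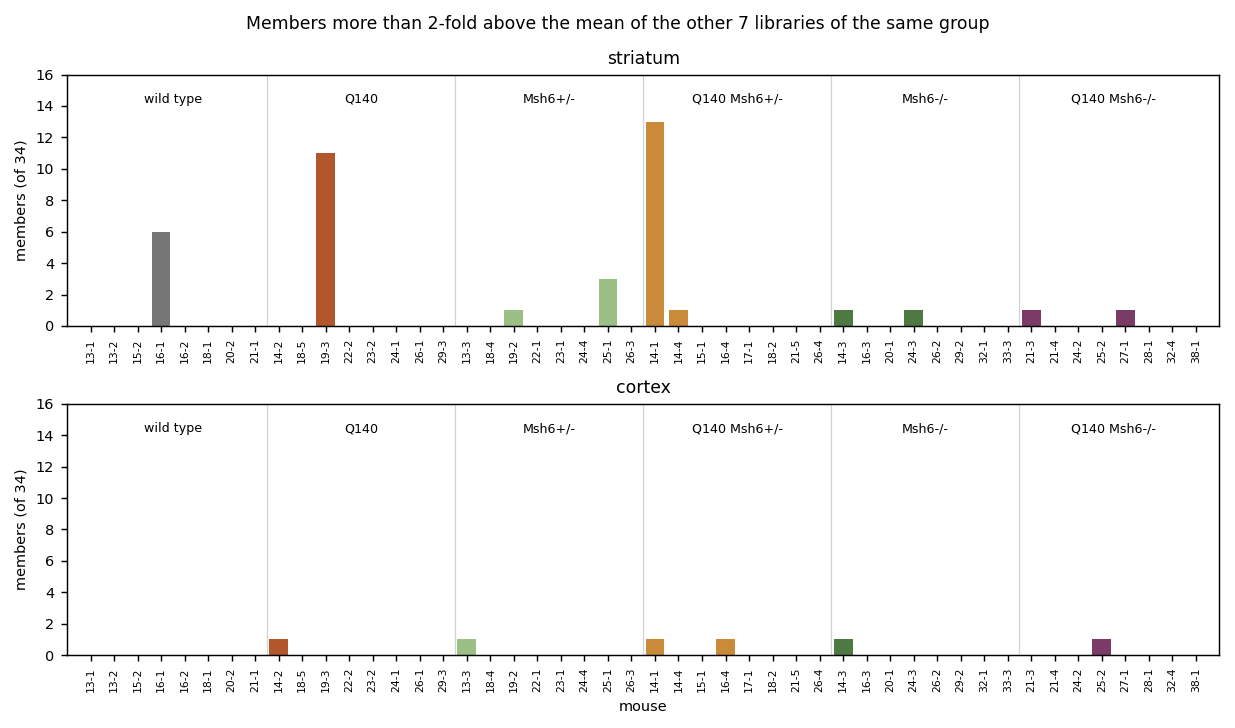
Number of the 34 tested members that were more than 2-fold above the mean of the other 7 libraries of their group, for each of 48 mice in striatum (upper) and cortex (lower). Mice 14-1 and 19-3 reach 13 and 11 in striatum and 1 and 0 in cortex.

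**Figure D3:**
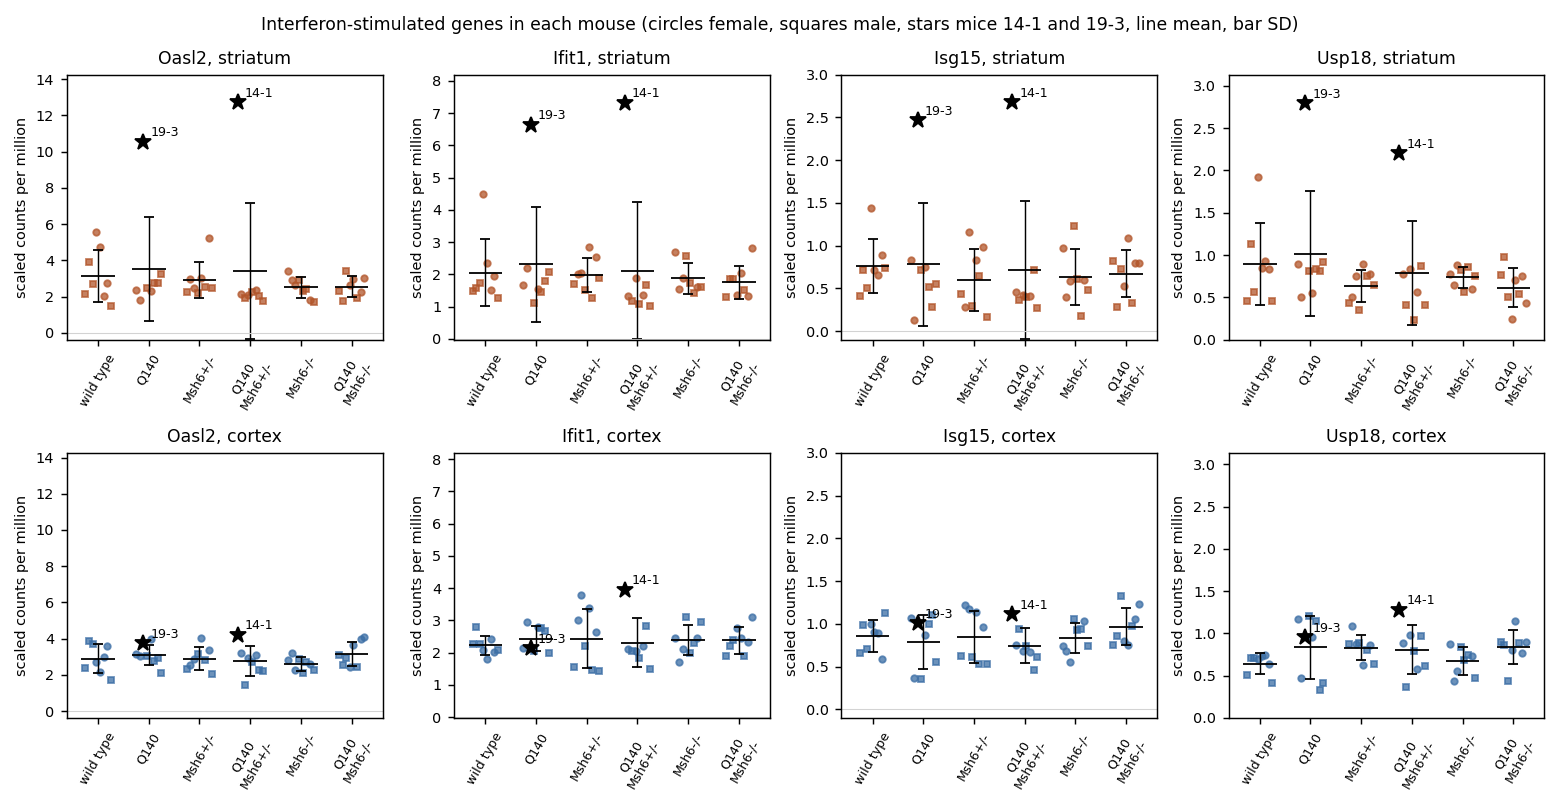
Scaled CPM of Oasl2, Ifit1, Isg15 and Usp18 in each mouse by genotype, in striatum (upper row) and cortex (lower row), with means (lines) and SDs (bars) over 8 mice; stars mark mice 14-1 and 19-3. In striatum the stars stand far above the rest of their groups (Oasl2 at 12.7 and 10.5 CPM), and in cortex mouse 14-1 is the highest of 48 for Oasl2 (4.23 CPM), Ifit1 (3.95 CPM) and Usp18 (1.28 CPM), while mouse 19-3 lies within its group.

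The rise was not of the same size in the cortex of these mice. In the cortex of mouse 14-1, 1 member was more than 2-fold above its group (Ifi44) and 10 were the highest of all 48 cortices, where 7.22% of all genes were. That cortex also had the highest summed microglial, endothelial and oligodendrocyte marker levels of the 48. The cortex of mouse 19-3 had no member more than 2-fold above its group and none highest of 48. In the 2 striata, the summed microglial markers were slightly above those of every other library of the group: 503.3 CPM in mouse 14-1 against 429.5 to 495.6, and 498.6 CPM in mouse 19-3 against 447.7 to 493.8. The summed activated microglia markers lay within the group in both: 970.4 CPM against 951.7 to 1214, and 1035 CPM against 958.4 to 1045. The endothelial sums lay within the group as well. Over all 48 striata, where mice without Q140 had higher microglial sums, the 2 striata ranked 22 and 24 for microglial markers. For activated microglia markers they ranked 43 and 30. The sum of 27 tested interferon gamma and antigen presentation genes ranked 1 and 2. Of 6 tested blood and lymphocyte genes, 4, all haemoglobins, were high in each of the 2 striata. They were more than 2-fold above the mean log2 level of the other 7 libraries of the group. In the group of mouse 19-3, another striatum was higher still for Hbb-bs (9.83 CPM), Hba-a1 (6.23 against 4.45 CPM) and Hba-a2 (1.65 against 1.43 CPM). The same 4 were more than 2-fold above that mean in the cortex of each mouse. For Hbb-bt, another cortex of the group was above that of mouse 14-1 (0.657 against 0.390 CPM). Haemoglobin Hbb-bs stood at 4.35 and 8.78 CPM in the striata, rank 9 and 4 of 48. In the cortices it stood at 4.73 and 10.5 CPM, rank 9 and 2 of 48. The part of microglia, blood or other cells in the values of the 2 striatal libraries was not tested.

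Without these 2 striatal libraries, a setting chosen after seeing the data, the Q140 comparison in striatum changed in its members. The 2 libraries were picked because these members were high in them and both were carriers, so a downward shift of the Q140 estimates was fixed by the choice and is given as a description. High libraries without Q140, such as wild-type mouse 16-1, stayed in. There were then 12 called of 34, 3 higher and 9 lower, while 51.5% of all genes were called, and 27 of 34 estimates were negative, with a median of -0.10 log2 units beside 0.01 for all genes. Samhd1 (0.18), Irf3 (0.16) and Ifnar1 (0.06) stayed higher. The 9 lower were Oas1a (-0.48), Ifi44 (-0.50), Oas2 (-0.42), Irf7 (-0.39), Ifit1 (-0.29), Gbp3 (-0.28), Parp14 (-0.18), Ifi27 (-0.13) and Stat2 (-0.09). In Irf7, for example, the 22 remaining carriers ranged from 0.609 to 1.76 CPM (median 1.13), and the 24 mice without Q140 from 0.744 to 2.18 CPM (median 1.41). Leaving out mouse 14-1 alone gave 8 called members (3 higher, 5 lower; 52.1% of all genes called), and mouse 19-3 alone gave 6 (4 higher, 2 lower; 51.95% of all genes called).

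Markers of several cell types moved with Q140 in striatum as well. All 14 microglial markers fell (median -0.18 log2 units), with a summed level of 427.0 to 503.3 CPM in carriers and 477.9 to 582.2 CPM without Q140. Further, 10 of 12 endothelial, 7 of 10 astrocyte and 10 of 12 striatal projection neuron markers fell. The projection neuron sums were 7019 to 7943 CPM in carriers and 10630 to 13710 CPM without Q140. These marker counts stand beside 52.7% of all genes called, higher or lower, in the same comparison. None of the markers in these lists was at 0 in all libraries of a group. Other cell type lists are not described for this comparison. In bulk tissue, fewer cells of a type and less RNA per cell cannot be told apart. The part of these shifts in the values of the members was not tested.

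The rest of the pathway did not move in 1 direction. No interferon ligand passed the filter on low counts in either tissue. Of 15 tested receptor and JAK-STAT genes, 7 rose and 6 fell: the interferon gamma receptor subunit Ifngr2 rose by 0.47, the lambda receptor Ifnlr1 by 1.54 and the receptor kinase Tyk2 by 0.20, while Pias1 fell by 0.15 on the log2 scale. Of 17 sensing adaptors, 3 rose and 5 fell, among them Tmem173, which encodes Sting, the adaptor of cGAS, at -0.25 and the kinase Tbk1 at -0.08. Of 10 genes that clear nucleic acids, 5 rose and none fell, with Rnaseh2c at 0.26 and Pnpt1 at 0.13. Of 42 other interferon-stimulated genes, 3 rose and 8 fell, with Helz2 at -0.43 and Ifi27l2a at -1.21, and of 27 interferon gamma and antigen presentation genes, 4 rose and 7 fell, with the proteasome genes Psme1 at 0.43 and Psmb10 at 0.39. These counts stand beside the same 52.7% of all genes.

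In cortex, Q140 changed 1 member. Samhd1 rose by 0.12 log2 units (SE 0.031, 1.09-fold, adjusted p = 0.0330, edgeR), and 1.54% of all genes were called. Its cortical level was 16.1 to 21.8 CPM without Q140 (median 18.7) and 17.1 to 24.3 CPM with it (median 20.2), so the groups overlapped over most of their range. Without the cortices of mice 14-1 and 19-3 the value was 0.10 and the call was lost (adjusted p = 0.082, edgeR). Most estimates were above 0 (29 of 34, median 0.07 log2 units beside 0.00 for all genes), 6 members reached an unadjusted p under 0.05, and all 34 intervals lay within 1.5-fold. The median estimate of the 14 microglial markers was 0.08. The 3 matched pairs in cortex gave 0 called members each with edgeR, DESeq2 and limma (0.017%, 0.193% and 0.136% of all genes called; 0, 2 and 3 members at an unadjusted p under 0.05). No member passed for an interaction with Msh6+/- or Msh6-/- in cortex either (0% and 0% of all genes called; 1 and 0 members at an unadjusted p under 0.05; 0 with DESeq2 and limma).

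The Q140 effect itself was compared between the tissues in a fit of all 96 libraries, which held no term for the mouse. Parp14, an ADP-ribosyltransferase, had a Q140 effect that was 0.29 log2 units lower in striatum than in cortex (difference -0.29, SE 0.102, adjusted p = 0.0184, edgeR), the only member called there (37.5% of all genes called). Its estimates were -0.11 in striatum and 0.18 in cortex, and neither passed alone. With the mouse as a replicate block, since each mouse gave both tissues, 7 members were called (41.4% of all genes called), all with negative differences: Parp14 (-0.30), Gbp3 (-0.22), Irf7 (-0.39), Irf9 (-0.12), Ifi44 (-0.54), Irf1 (-0.18) and Trim30a (-0.23). Without the striata of mice 14-1 and 19-3 there were 9 (35.7% of all genes called). These carrier striata were picked because members were high in them, so a downward shift of the differences was fixed by the choice.

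Loss of Msh6 gave no called member in any comparison. Averaged over the Htt genotypes (16 mice against 16), Msh6-/- against Msh6+/+ called 0 of 34 members in striatum (0.263% of all genes called; 5 members at an unadjusted p under 0.05, 3 of them higher; 0 with DESeq2 and 0 with limma) and 0 of 34 in cortex (0.284% of all genes called; 2 at an unadjusted p under 0.05; 0 with both other tools). The medians were -0.01 and -0.03 log2 units. All 34 intervals lay within 2-fold in both tissues, 28 of them within 1.5-fold in striatum and 34 in cortex. A change of 2-fold in any tested member averaged over these mice would thus fall outside its interval.

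The members nearest to the threshold pointed in different directions. Irf3 had the smallest adjusted p in striatum (0.281, edgeR), with a difference of 0.15 log2 units (SE 0.045). Over both Htt genotypes it ranged from 14.6 to 24.45 CPM in Msh6+/+ mice (median 20.5) and from 17.5 to 26.3 CPM in Msh6-/- mice (median 22.3). Among mice without Q140 the ranges were 14.6 to 21.3 CPM in wild type and 19.5 to 23.4 CPM in Msh6-/-. Among carriers they were 18.0 to 24.45 CPM in Q140 and 17.5 to 26.3 CPM in Q140 Msh6-/-. In that pair no transcription factor had an estimate above 0.09 log2 units. Usp18 had the lowest estimate at -0.49 (95% interval -0.94 to -0.03), and Mx2 followed at -0.43 (-0.75 to -0.11). The wild-type and Q140 groups of that contrast contain mice 16-1 and 19-3, the highest for Usp18 in their groups. In cortex the smallest adjusted p was that of Eif2ak2 (PKR, the kinase that halts translation on double-stranded RNA), at 0.563 with a difference of 0.24 (SE 0.088). Eif2ak2 lies on chromosome 17, 9.12 megabases from Msh6.

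The single comparisons gave the same count. In striatum, Msh6-/- against wild type, Msh6+/- against wild type, Q140 Msh6-/- against Q140 and Q140 Msh6+/- against Q140 called 0 members with edgeR, DESeq2 and limma (0.0971%, 0.0114%, 0.177% and 0.00571% of all genes called; 3, 1, 2 and 1 members at an unadjusted p under 0.05). In cortex the same 4 comparisons called 0 (0.131%, 0.00567%, 0.153% and 0.0113% of all genes; 2, 2, 0 and 4 members at an unadjusted p under 0.05). Msh6+/- averaged over the Htt genotypes called 0 in striatum (0.0229% of all genes; 2 unadjusted) and 0 in cortex (0.0113%; 4 unadjusted), and the difference of the Msh6-/- effect between the tissues called 0 (0.0163%; 2 unadjusted), again with 0 in DESeq2 and limma. None of the genes of the 5 tested pathway lists was called for Msh6-/- in either tissue. cGAS, by its identifier, had estimates of -0.04 in striatum and -0.16 in cortex for Msh6-/- (adjusted p = 0.976 and 0.939, edgeR).

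**Figure D4:**
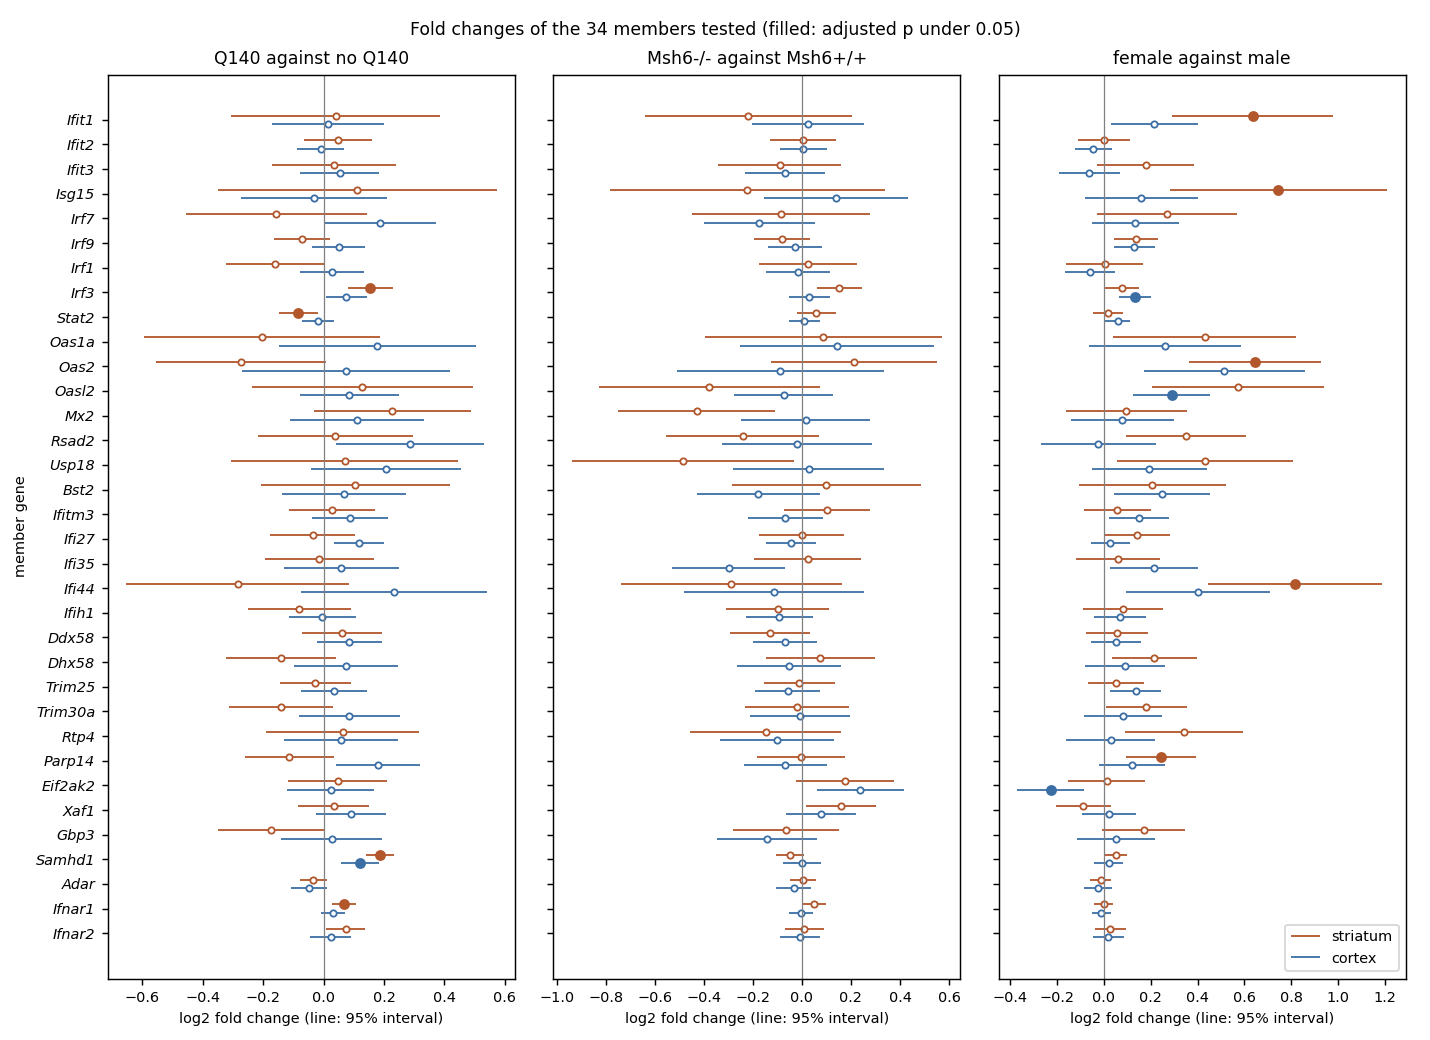
Log2 fold changes with 95% intervals for the 34 tested members in striatum (brown) and cortex (blue), for Q140 against no Q140, Msh6-/- against Msh6+/+ and female against male; filled points have an adjusted p under 0.05. The filled points are Samhd1, Irf3, Ifnar1 and Stat2 for Q140, none for Msh6-/-, and 5 striatal and 3 cortical genes for sex.

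Of the members, 5 were called for sex in striatum and 3 in cortex. In striatum, 5 of 34 members were higher in females and none lower (5.54% of all genes called): Ifi44 by 0.82 log2 units (SE 0.185, adjusted p = 0.00441), Isg15 by 0.75 (SE 0.231, 0.0443), Oas2 by 0.65 (SE 0.140, 0.00317), Ifit1 by 0.64 (SE 0.172, 0.0189) and Parp14 by 0.24 (SE 0.074, 0.0391), all with edgeR. DESeq2 called 4 and limma 1. Estimates were positive for 31 of 34, with a median of 0.14 log2 units. Oas2, which makes the messenger that activates RNase L, ranged from 0.525 to 1.71 CPM in 24 females (median 0.927) and from 0.183 to 1.03 CPM in 24 males (median 0.654). The female mean of Oas2, Ifi44, Ifit1, Isg15 and Parp14 was higher in 6 of 6 genotypes. Over all mice the ranges of females and males overlapped.

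The 3 striata with the most raised members were all female, so leaving out 2 of them lowered the sex difference by construction. Without mice 14-1 and 19-3, Oas2 (0.54), Ifi44 (0.66) and Ifit1 (0.36) remained called, Isg15 (0.44, adjusted p = 0.175) and Parp14 (0.18, adjusted p = 0.103) did not, and the median of all members was 0.06 log2 units. The range of Ifit1 in females fell from 1.34 to 7.32 CPM to 1.34 to 4.49 CPM, beside 1.03 to 2.57 CPM in males. Of the microglial markers 3 of 14 were higher in females (C1qa, C1qb and Fcrls). Their part in the sex difference was not tested.

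In cortex, sex called 3 members (6.31% of all genes called). Irf3 (0.13, SE 0.034, adjusted p = 0.0105) and Oasl2 (0.29, SE 0.082, adjusted p = 0.0225) were higher in females, and Eif2ak2 (-0.23, SE 0.072, adjusted p = 0.0427) was lower (edgeR). Irf3 ranged from 17.3 to 26.4 CPM in females (median 20.6) and from 15.2 to 22.1 CPM in males (median 18.7), with the female mean higher in 6 of 6 genotypes. Oas2, called in striatum, had an estimate of 0.51 (SE 0.172) in cortex and did not pass (adjusted p = 0.0599, edgeR). The difference of the sex effect between the tissues was not tested.

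Between the tissues, 25 of 34 members differed (87.1% of all genes called), 9 higher and 16 lower in striatum. Samhd1 was higher in striatum by 0.73 log2 units (SE 0.019, adjusted p = 4.28e-57, edgeR), with 27.4 to 38.6 CPM in 48 striata (median 33.3) and 16.1 to 24.3 CPM in 48 cortices (median 19.3), and it was higher in striatum in 48 of 48 mice. The RNA sensor Ifih1 (-1.06, SE 0.050), Ifit2 (-1.04, SE 0.033), Irf1 (-0.90, SE 0.047) and Rtp4 (-0.50, SE 0.078) were the 4 with the lowest estimates. Ifit2 stood at 4.93 to 8.34 CPM in striatum (median 6.54) and at 10.3 to 15.9 CPM in cortex (median 12.8), so that the tissues did not overlap, and they did not for Samhd1 and Ifih1 either. Ifit1 and Ifit2 thus differed in degree although they are neighbours on chromosome 19: Ifit1 had an estimate of -0.29 (SE 0.099). The other RNA sensors Ddx58 (-0.23) and Dhx58 (-0.14) were also lower in striatum, and the receptor subunits went in opposite directions, with Ifnar2 at 0.18 and Ifnar1 at -0.10. With the mouse as a replicate block the count was 26.

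Mouse by mouse, some members went together in the 2 tissues. Genotype and sex were fitted out in each tissue, and the residual log2 CPM of striatum and cortex were correlated over the 48 mice. A positive correlation was called for 8 of 34 members, beside 13.4% of the 16806 genes tested in both tissues, with p-values adjusted over all of these genes. The median r of the members was 0.29 and that of all genes 0.16. The 8 were Adar, Irf9, Stat2, Gbp3, Eif2ak2, Irf1, Ifnar2 and Trim30a, most of them members with moderate to high levels, and the same 8 were called without mice 14-1 and 19-3.

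Adar had r = 0.79 (rho = 0.71, both permutation p = 1e-05, the smallest that 100000 permutations can give) and an adjusted p of 6.45e-08, and r was 0.76 without the 2 mice farthest from the median in striatum. Adar shares 1365 antisense exon bases with Chrnb2. Irf9 had r = 0.63 (rho = 0.62, both permutation p = 1e-05), with 0.63 without the 2 farthest mice. Stat2 had r = 0.61 (rho = 0.57, permutation p = 1e-05 and 3e-05), with 0.53 without the 2 farthest. Among the readouts of a response, Oasl2 had r = 0.33, Isg15 0.32 and Ifit3 0.11, and none of the 3 passed after adjustment. Without the 2 farthest mice these fell to 0.21, 0.13 and -0.16.

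**Figure D5:**
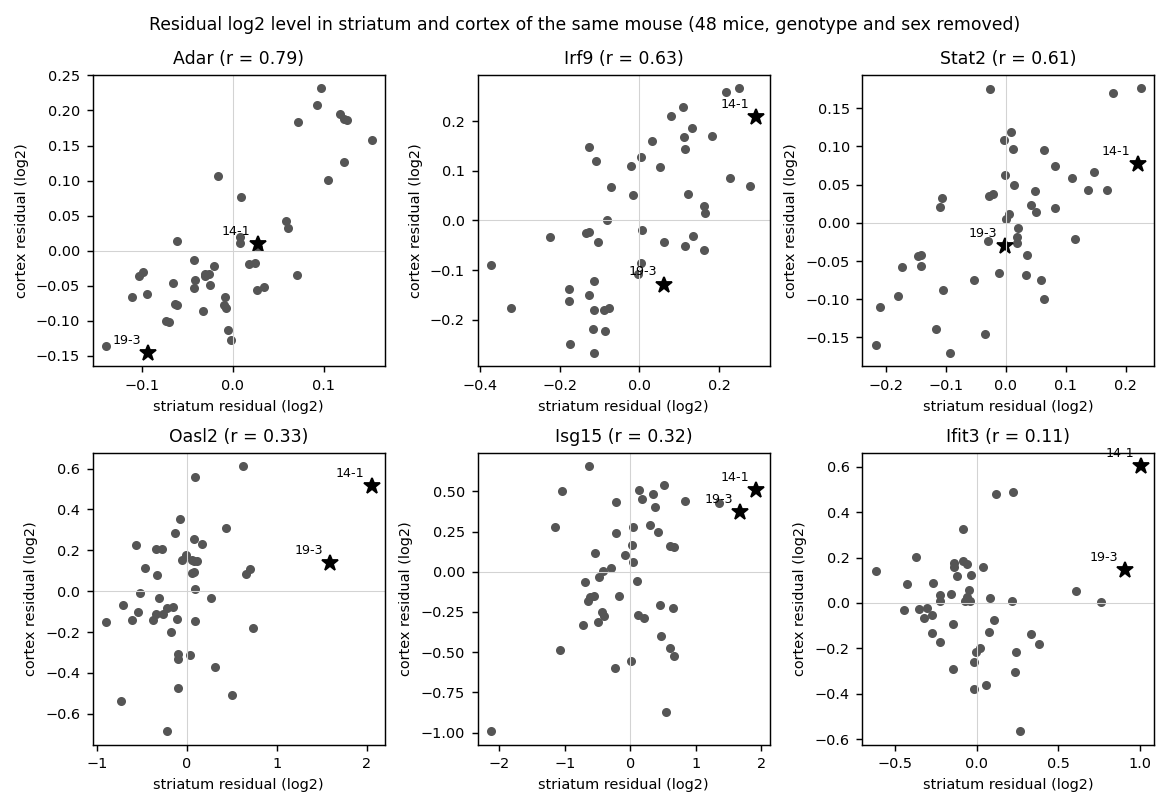
Residual log2 level, after genotype and sex, in striatum (x axis) and cortex (y axis) of the same 48 mice for 6 members; stars mark mice 14-1 and 19-3. Adar, Irf9 and Stat2 follow a line (r = 0.79, 0.63 and 0.61), and in Oasl2, Isg15 and Ifit3 the 2 marked mice lie at the right of the cloud.

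Among themselves, the 9 common readouts (Isg15, Ifit1, Ifit3, Irf7, Usp18, Rtp4, Oasl2, Bst2 and Stat2) went together in striatum. The 36 pairs had a median r of 0.53 over 48 mice, and 0.27 without mice 14-1 and 19-3. In cortex the median was 0.23, and 0.18 without the same mice. These correlations are descriptions over libraries that share dissection and depth.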

How the data were processed

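RNA from striatum and cortex of 48 mice (96 libraries) was purified with RNeasy kits and sequenced from stranded TruSeq libraries, per the labels' protocols. STAR 2.7.5c, SAMtools 1.10, HTSeq 0.12.3 and the builds GRCm38 and mm10 are named in the submitters' processing notes. Neither the strand setting of the counting nor the annotation release was stated in these sources. The deposited tables hold raw counts per gene and FPKM; dividing each count by 1 length per gene and by its library's total gives the deposited FPKM, which therefore carry no scaling between libraries.

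From the counts, edgeR 4.0.16 (R 4.3.3) was fitted in each tissue with TMM scaling, filterByExpr (minimum count 10, minimum total 15), 6 genotype terms and sex. A fit of all 96 libraries compared the tissues. Calls used a Benjamini-Hochberg adjusted p under 0.05 over all genes in each of 29 comparisons. Standard errors are the log2 fold change over the root of F. DESeq2 1.42.0, limma 3.58.1 on log2 FPKM with pseudocounts 0.1 and 1 (minimum mean FPKM 0.1), other scaling, filters, covariates and left-out libraries were alternatives. Depth limits the members with few counts, whose intervals are wide. The scripts were tested on simulated data. The same mouse number in both tissues, from the labels, pairs the libraries, and residuals of the same mouse were correlated (prior count 1).

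The members and lists were chosen with earlier results of these data known. All members may be named; values by mouse or range are given for called members and for 9 common readouts, and up to 4 called genes of each other list are named. The labels give separate mice, so p-values of the fits within a tissue measure the spread between mice. The main fit of all 96 libraries held no term for the mouse. It took the striatum and cortex of a mouse as separate samples, so its p-values leave the pairing out. Gene positions are those of GENCODE M21 (GRCm38), and 13 of the 38 members share exon bases with another gene.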

Additional observations from a re-analysis of the deposited data

Results flagged for a closer look

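A value was taken up here when 1 of the 8 mice of a group stood apart from the rest by Dixon's 95% criterion (a gap above 0.526 of the range). Of 228 groups tested over 19 genes, 32 values met it. For normally distributed values the criterion is met in about 1 in 20 groups. The same mice entered the groups of every gene, so the 32 values are not independent and that rate is no baseline for them. Of the 32, 29 were the highest and 3 the lowest of their group.

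Mouse 14-1 (Q140 Msh6+/-, female) gave 11 of these in striatum. Oasl2 was at 12.73 CPM, Ifit3 at 11.96, Ifit1 at 7.321, Isg15 at 2.68 and Usp18 at 2.201. Bst2 stood at 4.019 CPM, Irf7 at 3.78, Rtp4 at 2.393, Gbp3 at 9.714, Eif2ak2 at 9.379 and Samhd1 at 38.62. In the cortex of the same mouse Gbp3 (6.236 CPM), Ifnar1 (51.33 CPM) and Irf3 (26.39 CPM) stood apart. Mouse 19-3 (Q140, female) gave 6 in striatum: Oasl2 at 10.54 CPM, Ifit3 at 12.57, Ifit1 at 6.642, Irf7 at 2.964, Usp18 at 2.799 and Isg15 at 2.47.

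Wild-type mouse 16-1 (female) had the highest striatal Ifit1 (4.493 CPM), Isg15 (1.444 CPM) and Usp18 (1.925 CPM) of its group. Among the other striata, Bst2 was at 3.153 CPM in mouse 21-3 (Q140 Msh6-/-), Oasl2 at 5.238 CPM in mouse 25-1 (Msh6+/-), Irf7 at 0.7441 CPM, the lowest, in wild-type mouse 21-1, and Stat2 at 27.93 CPM, the lowest, in mouse 26-2 (Msh6-/-). In cortex, wild-type mouse 13-2 stood apart with Gbp3 at 7.816 and Irf1 at 8.425 CPM, mouse 22-1 (Msh6+/-) with Irf1 at 7.59 CPM, mouse 14-2 (Q140) with Irf7 at 2.704 CPM, and wild-type mouse 13-1 with the lowest Irf3, 15.15 CPM.

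The Q140 effect on Parp14 differed between the tissues by -0.29 log2 units (edgeR adjusted p = 0.0184).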

How the results depend on the processing

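Over the alternatives, 303 counts of called members stayed within 1.5 times the reported count and 24 did not. Of single-member values, 386 kept their side of the threshold, 39 lost the call and none reversed. In every case the cause was not tested.

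With an adjusted p under 0.1, Q140 in striatum gave 8 members in place of 4, Q140 against wild type 4 in place of 2, sex 9 in place of 5 in striatum and 5 in place of 3 in cortex, and the Q140 difference between tissues 2 in place of 1. On log2 FPKM with either pseudocount, limma gave 4 members for Q140 against wild type, 3 for Q140 Msh6+/- against Msh6+/- in place of 1, 1 for sex in striatum and 3 for the tissue difference.

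Leaving out libraries was chosen from these data, mice 14-1 and 19-3 by the members and mouse 21-3 by its choroid plexus markers. Without the striatum of mouse 14-1, counts were 8 for Q140, 3 for Q140 Msh6+/- against Msh6+/- and 3 for sex; without that of mouse 19-3, 3 for sex; without both, 12, 4 and 3, and 9 for the tissue difference. Without the cortices of both, Q140 in cortex gave 0. Without the striatum of mouse 21-3 the tissue difference gave 3.

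With the animal as a replicate block, the tissue difference of the Q140 effect gave 7 members and striatum against cortex 26 in place of 25; the block left the Msh6-/- difference at 0. Within 1 tissue each mouse gave 1 library, so there is no pair to block on.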
